A study of Rattus norvegicus with 18 samples.

Results

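Calcitriol and calcidiol, 2 forms of vitamin D, were compared in INS1E cells that received no glucose stimulation. INS1E is an insulin-secreting beta-cell line derived from a rat insulinoma. The comparison used 6 of the 18 arrays of the study, chosen by their sample titles: 3 arrays of cells given 10 nM calcitriol and 3 of cells given 10 nM calcidiol, in both cases for 72 h. A further group of 3 control arrays, from cells in the same medium with its standard supplements and no added vitamin D, is given beside them. Per the labels, the cells had been grown at 11 mM glucose and were kept for 60 min in Krebs-Ringer buffer free of glucose. The other 3 groups repeated these treatments with 22 mM glucose for 60 min, and the labels do not say what the unstimulated cells received in that last hour. All samples are of 1 line. The p-values rest on the variation among samples within groups, pooled over the 6 groups of 3 arrays. Since the labels name no separate cultures within a group, that variation could be technical.

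Calcidiol is the form of vitamin D that circulates in blood at the highest level. Calcitriol carries 1 further hydroxyl group, added by the hydroxylase encoded by Cyp27b1, and is the hormone that binds the vitamin D receptor with high affinity. The bound receptor pairs with a retinoid X receptor and acts on transcription, classically at direct repeats of a hexamer. Its best known target, Cyp24a1, encodes the enzyme that inactivates both forms. Beta cells express the receptor, and the comparison asks whether the hormone and its precursor left different transcript levels. Cyp24a1, Cyp27b1 and Cyp27a1, a liver-type hydroxylase gene, were not analysed here.

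No gene passed the test for a difference between calcitriol and calcidiol over the 18 arrays, and 1 gene, Casr, was higher after calcitriol when the arrays numbered 3 were left out. Each value is a log2 signal of a probe set, so that a difference of 1 is a 2-fold difference in signal. Of 9852 genes tested by limma, 0 passed at an adjusted p of 0.05, a share of 0.0%. An unadjusted p under 0.05 was reached by 96 genes, or 0.974% of those tested, with 83 higher after calcitriol (0.842%) and 13 lower (0.132%). The smallest adjusted p by limma was 0.9997. The share of 0.974% is below the 0.05 that tests of genes without any difference would give on average. The lack of calls is therefore weak evidence that the forms left equal transcript levels. The differences were small for most genes: the 5th and 95th percentiles over genes were -0.11 and 0.15, and the largest difference of either sign was 0.72. The median 95% interval reached 0.19 to either side of the difference. For some genes it was far wider, as Casr below shows.

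The arrays numbered 3 went against those numbered 1 and 2, and this touches each result that follows. Taking like-numbered arrays together, calcitriol minus calcidiol had a standard deviation over genes of 0.115 for the arrays numbered 1, 0.172 for those numbered 2 and 0.208 for those numbered 3. Across genes, the differences of the arrays numbered 1 and 2 correlated at r = 0.23, those of 1 and 3 at r = -0.46, and those of 2 and 3 at r = -0.12. These correlations are over 9852 genes, which are not independent, and each pair of arrays shares its number. Expressed as the difference from the like-numbered control array, calcidiol 3 correlated with calcitriol 1 at r = 0.34 and with calcitriol 2 at r = 0.32, but with calcidiol 1 at r = -0.08 and with calcidiol 2 at r = 0.03. Calcitriol 3 correlated with calcitriol 1 at r = 0.05 and with calcitriol 2 at r = 0.01. Calcitriol 3 correlated with calcidiol 1 at r = 0.02 and with calcidiol 2 at r = -0.07, and calcitriol 1 with calcitriol 2 at r = 0.18. Calcidiol 3 was thus nearer to calcitriol 1 and 2 than to the other arrays of its own label. Calcidiol 1 correlated with calcidiol 2 at r = -0.1, so low likeness within that label was not particular to calcidiol 3. Whether samples were exchanged was not tested. All labels were kept as given, so that every difference over the 18 arrays rests on them, and the counts of genes called and the genes that turn on the arrays numbered 3 are also given for the 12 arrays numbered 1 and 2.

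Casr encodes the calcium-sensing receptor, a G-protein-coupled receptor of the cell surface and a known vitamin D target in parathyroid and kidney, and it was the single gene called on the 12 arrays. Its log2 signal was 7.36, 7.27 and 6.49 on the calcitriol arrays numbered 1, 2 and 3, against 6.20, 6.30 and 9.52 on the calcidiol arrays, and it was 6.29, 6.19 and 6.43 on the control arrays. Calcitriol 1 and 2 were above every control array, calcitriol 3 was within 0.1 of the highest control array, and calcidiol 3 was the highest of these 9 arrays. The filter on low signals lay at a mean of 6.38, and calcidiol 1 and 2 and control 1 and 2 were below it. Casr thus entered the test through the arrays on which it was high. Over the 18 arrays Casr differed by -0.30 (SE 0.79, 95% interval -1.99 to 1.38, adjusted p = 0.9997 by limma). Over the 12 arrays numbered 1 and 2 it rose by 1.06 after calcitriol relative to calcidiol (SE 0.09, adjusted p = 0.002603 by limma), 1 call among 9852 genes or 0.0102%, with 216 genes (2.19%) at an unadjusted p under 0.05, 158 higher (1.6%) and 58 lower (0.589%). With the array number as a block in that fit the count was 2, with Casr (adjusted p = 0.00233 by limma) and Adam23 (adjusted p = 0.0134). In a limma fit of the calcitriol and calcidiol arrays numbered 1 and 2 alone, without the other groups, the Casr difference was again 1.06 but its adjusted p was 0.337. The 12 arrays were set apart with earlier results of these data known, so p-values from them are no independent support. Against the control arrays of the same 12, which both differences share, calcitriol stood 1.08 higher (95% interval 0.87 to 1.28) and calcidiol 0.01 higher (-0.19 to 0.22).

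**Figure D1:**
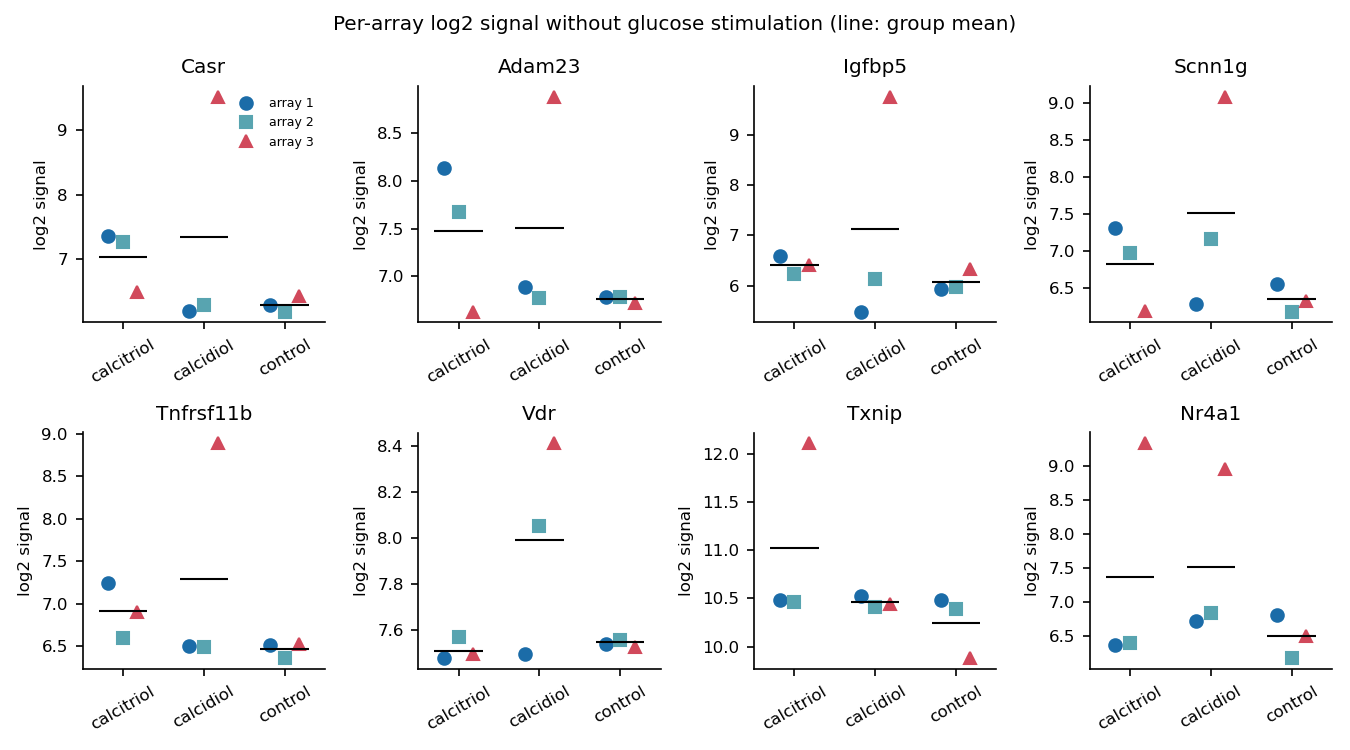
Log2 signal (vertical axes, each with its own range) of 8 genes on each array of the calcitriol, calcidiol and control groups without glucose stimulation. Points are single arrays, with a circle, a square and a triangle for arrays numbered 1, 2 and 3, and the line is the group mean. Casr was at 9.52 on calcidiol 3 and at 7.36 and 7.27 on calcitriol 1 and 2, while Txnip was at 12.11 on calcitriol 3 alone.

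Calcidiol 3 was also the highest array for other genes, described next because their calcitriol 3 minus calcidiol 3 values were among the 8 lowest. Igfbp5, encoding a secreted protein that binds insulin-like growth factors, had signals of 6.58, 6.22 and 6.40 after calcitriol, against 5.48, 6.14 and 9.75 after calcidiol and 5.94, 5.97 and 6.32 in control cells. Scnn1g, encoding the gamma subunit of the epithelial sodium channel, had 7.32, 6.97 and 6.19 after calcitriol, against 6.29, 7.17 and 9.09 after calcidiol and 6.55, 6.18 and 6.33 in control cells. In both genes calcidiol 3 was more than 1.5 units above every other array of these 3 groups, and calcitriol 1 came next. Their differences over the 18 arrays were -0.72 (95% interval -2.71 to 1.26) for Igfbp5 and -0.69 (-2.11 to 0.73) for Scnn1g. Over the 12 arrays both had the other sign, at 0.59 (0.16 to 1.02) for Igfbp5 and 0.42 (-0.29 to 1.12) for Scnn1g, and neither passed by limma. Every control array for Igfbp5, and control 2 and 3 for Scnn1g, lay below the filter value of 6.38.

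The promoters of these 3 genes are shown because Casr, Igfbp5 and Scnn1g had the lowest calcitriol 3 minus calcidiol 3 values of all genes tested and were each at least 1 unit higher on calcitriol 1 than on calcidiol 1. Each runs from 250 bases before to 50 bases after the start of the gene, 5′ to 3′ on the gene's strand, from RefSeq on the rat assembly GRCr8. Casr lies at chr11:77740364-77740663 on the plus strand, Igfbp5 at chr9:81914138-81914437 on the minus strand and Scnn1g at chr1:185735975-185736274 on the plus strand. Capitals mark hexamers of the kind that the vitamin D receptor binds in pairs, searched on both strands. The hexamers searched were AGGTCA with its variant AGTTCA, then GGGTCA with its variant GGTTCA, and lastly GGGTGA. Those found were on the opposite strand and so read in reverse complement.
Casr: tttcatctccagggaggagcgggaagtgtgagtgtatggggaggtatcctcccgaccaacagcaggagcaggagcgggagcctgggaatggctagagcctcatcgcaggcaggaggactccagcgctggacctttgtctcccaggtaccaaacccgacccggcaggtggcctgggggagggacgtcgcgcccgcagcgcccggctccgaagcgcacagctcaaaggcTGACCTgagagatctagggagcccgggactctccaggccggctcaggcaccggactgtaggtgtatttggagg
Igfbp5: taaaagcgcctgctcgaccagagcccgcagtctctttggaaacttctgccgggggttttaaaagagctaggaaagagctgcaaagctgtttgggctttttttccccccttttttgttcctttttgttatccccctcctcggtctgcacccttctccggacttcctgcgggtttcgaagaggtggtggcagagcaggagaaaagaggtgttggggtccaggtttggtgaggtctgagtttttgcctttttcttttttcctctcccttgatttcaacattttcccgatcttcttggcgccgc
Scnn1g: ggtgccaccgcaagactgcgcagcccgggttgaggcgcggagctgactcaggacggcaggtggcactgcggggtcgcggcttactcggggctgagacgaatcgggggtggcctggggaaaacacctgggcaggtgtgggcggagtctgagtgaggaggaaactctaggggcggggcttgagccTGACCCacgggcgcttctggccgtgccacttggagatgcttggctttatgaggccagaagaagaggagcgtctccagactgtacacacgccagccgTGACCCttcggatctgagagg
The Casr window held 1 such hexamer, AGGTCA, starting at base 228 of the window. The Scnn1g window held 2, both GGGTCA, at bases 184 and 280, and the Igfbp5 window held 0, with 0 overlaps between hexamers. Direct repeats of any of these hexamers with a spacer of 3 bases numbered 0 in each of the 3 windows. Among 33469 rat promoters of the same length, 17551 (52.4%) held at least 1 hexamer and 50 (0.149%) held a repeat. Absence of a match says only that these letters are not in the window.

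Adam23, encoding a surface protein of neural cells without protease activity, had signals of 8.13, 7.67 and 6.63 after calcitriol, against 6.89, 6.77 and 8.88 after calcidiol and 6.78, 6.78 and 6.72 in control cells. The difference was -0.04 over the 18 arrays (95% interval -1.26 to 1.18) and 1.06 over the 12 (0.76 to 1.37, adjusted p = 0.05258 by limma). Calcitriol 1 and 2 and calcidiol 3 were raised above the controls, and the other 3 arrays were within 0.2 of them. Lppr1, which encodes a phospholipid phosphatase-related membrane protein of neurons, had 10.07, 8.96 and 8.27 after calcitriol, against 8.55, 7.53 and 10.65 after calcidiol and 8.40, 8.18 and 8.11 in control cells. Every calcitriol array lay within the range of the calcidiol arrays, with a difference of 0.19 over the 18 arrays (95% interval -1.41 to 1.78) and 1.47 over the 12 (0.49 to 2.45, adjusted p = 0.9988 by limma).

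Tnfrsf11b encodes osteoprotegerin, the secreted decoy receptor for RANKL. Its signals were 7.25, 6.60 and 6.91 after calcitriol, against 6.50, 6.49 and 8.89 after calcidiol and 6.51, 6.36 and 6.53 in control cells. Here all 3 calcitriol arrays and calcidiol 3 exceeded every control array. Ros1, a receptor tyrosine kinase gene, had 8.04, 8.05 and 7.16 after calcitriol, against 6.86, 7.70 and 9.24 after calcidiol. Gab1, whose product is an adaptor downstream of such receptors, had 7.62, 7.69 and 7.33 after calcitriol, against 6.92, 7.23 and 9.38 after calcidiol. In both genes calcitriol 1 and 2 were above calcidiol 1 and 2 of the same number, and calcidiol 3 was highest. For Tnfrsf11b, Ros1 and Gab1 the differences were -0.37, -0.18 and -0.30 over the 18 arrays and 0.43, 0.77 and 0.58 over the 12, and none passed by limma in either fit.

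Counted over all genes, 44 (0.447%) were at least 1 unit lower on calcitriol 3 than on calcidiol 3 and 12 (0.122%) were at least 1 unit higher. For the arrays numbered 1 the counts were 0 lower (0.0%) and 7 higher (0.0711%), and for those numbered 2 they were 7 lower (0.0711%) and 3 higher (0.0305%). The 7 higher on calcitriol 1 were Adam23, Casr, Gdap1, Igfbp5, Lppr1, Ros1 and Scnn1g, named here after their values were seen. Of the 44 genes lower on calcitriol 3, all 44 were higher on calcitriol 1 than on calcidiol 1 and 40 were higher on calcitriol 2 than on calcidiol 2. The 40 genes higher in both pairs made up 90.9% of the 44, against 33.7% of all genes tested. Relative to the like-numbered control array, the median of the 44 was 0.49, 0.37 and -0.04 on calcitriol 1, 2 and 3, against -0.03, 0.07 and 1.3 on calcidiol 1, 2 and 3. The 44 were chosen from the arrays numbered 3, so their values on those arrays are a description.

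**Figure D2:**
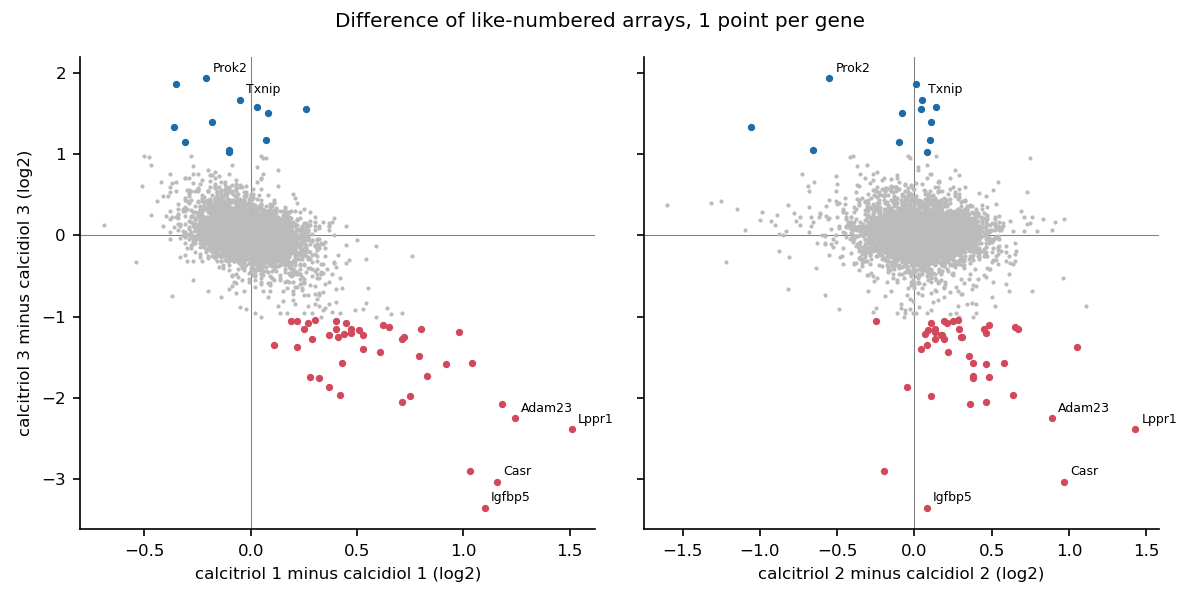
Calcitriol minus calcidiol for the arrays numbered 3 (vertical axis, log2) against that for the arrays numbered 1 (left) and 2 (right, horizontal axes, log2), with 1 point for each of 9852 genes. Red points are the 44 genes at least 1 unit lower, and blue points the 12 genes at least 1 unit higher, on calcitriol 3 than on calcidiol 3. All 44 red points lie right of 0 in the left panel and 40 do so in the right panel.

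The 12 genes higher on calcitriol 3 did not show a like pattern on the other arrays, with medians of -0.1 and 0.03 for the pairs numbered 1 and 2, against 1.46 for the pair numbered 3. Txnip, which encodes a thioredoxin-binding protein and follows glucose metabolism, had signals of 10.48, 10.46 and 12.11 after calcitriol, against 10.53, 10.41 and 10.44 after calcidiol and 10.48, 10.39 and 9.88 in control cells. Zfp36, encoding a protein that destabilises mRNAs, had 6.82, 6.69 and 8.49 after calcitriol, against 6.74, 6.76 and 6.98 after calcidiol. In both genes calcitriol 3 stood alone among the arrays without glucose, and the remaining arrays of the 2 forms lay close together. G0s2, encoding an inhibitor of triglyceride breakdown, had 6.28, 6.44 and 7.84 after calcitriol, against 6.24, 6.29 and 6.26 after calcidiol. Hbegf, a growth factor gene of the EGF family, had 7.97, 7.86 and 9.15 after calcitriol, against 8.32, 7.84 and 7.29 after calcidiol. Prok2, encoding a secreted peptide, Lcat, encoding a cholesterol-esterifying enzyme, Cdk5r1, encoding an activator of the kinase Cdk5, and the amino acid transporter gene Slc38a5 were 1.93, 1.55, 1.40 and 1.33 higher on calcitriol 3 than on calcidiol 3. None of these 8 genes passed by limma. The Txnip difference was 0.56 (95% interval -0.61 to 1.73) for the 18 arrays together and 0.00 (-0.17 to 0.17) for the 12. With glucose and no vitamin D, arrays 1 and 2 had 12.29 and 12.22 for Txnip. They had 9.21 and 9.23 for Zfp36, and 8.15 and 7.99 for G0s2. In these genes calcitriol 3 was nearer to those arrays than to the other arrays of the 2 forms without glucose. The array numbered 3 with glucose and no vitamin D was lower, at 10.33 for Txnip, 7.45 for Zfp36 and 6.52 for G0s2. Hbegf, Prok2, Lcat and Cdk5r1 were also higher on arrays 1 and 2 with glucose and no vitamin D than on control 1 and 2. On the array numbered 3 of that group they were again lower than on its arrays 1 and 2, at 8.52, 9.18, 6.03 and 6.96. Slc38a5 was not higher on those arrays 1 and 2, with 7.84 and 7.80 against 7.80 and 7.85 on control 1 and 2. Its calcitriol 3 signal of 8.28 was near the 8.36 of control 3, while calcidiol 3 was low at 6.95. In the pair numbered 2 its calcitriol minus calcidiol was -1.06. Why calcitriol 3 was high in the other genes of this paragraph was not tested.

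Nr4a1, an orphan nuclear receptor gene of the immediate early class, was high on the arrays numbered 3 of both forms. It had 6.38, 6.40 and 9.33 after calcitriol, against 6.72, 6.85 and 8.95 after calcidiol, while the control arrays were at 6.82, 6.18 and 6.50. The difference between the forms was -0.13 (95% interval -1.57 to 1.30). Egr1, another immediate early transcription factor gene, had 9.88, 10.00 and 10.28 after calcitriol, against 10.03, 10.21 and 10.19 after calcidiol, a difference of -0.09 (-0.49 to 0.31).

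Vdr, the vitamin D receptor gene, had signals of 7.48, 7.57 and 7.50 after calcitriol, against 7.50, 8.05 and 8.41 after calcidiol and 7.54, 7.56 and 7.53 in control cells. The calcitriol arrays were within 0.1 of the narrow control range, and calcidiol 2 and 3 exceeded both groups. The difference was -0.47 (SE 0.22, 95% interval -0.95 to -0.00, unadjusted p = 0.0480, adjusted p = 0.9997 by limma), and -0.26 (-0.62 to 0.11) over the 12 arrays. Rxra, encoding the alpha form of the retinoid X receptor that pairs with it, had 8.83, 9.33 and 9.13 after calcitriol, against 9.0, 10.02 and 9.09 after calcidiol, a difference of -0.27 (-0.84 to 0.30). Rxrb, the beta form, was 8.10, 8.09 and 8.07 after calcitriol, against 8.14, 8.21 and 8.05 after calcidiol, a difference of -0.05 (-0.21 to 0.11). Rxrg, the gamma form, and Cyp2r1, which encodes the main enzyme that makes calcidiol, lay below the filter on low signals and were not tested. Of the list of receptor partners, 27 genes long, 24 were tested and 0 passed, with a median difference of -0.03 against 0.02 over all genes.

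Of 59 listed vitamin D response genes, 36 were in the table and 26 were tested, and 0 passed over the 18 arrays in either direction. Casr was the 1 member that passed over the 12 arrays. The median of the list was -0.04, with members between -0.72 and 0.56, against 0.02 over all genes. On the arrays numbered 3, 4 of the 26 members were at least 1 unit lower after calcitriol than after calcidiol, namely Igfbp5, Casr, Tnfrsf11b and Nrip1, and Txnip was at least 1 unit higher, against 44 (0.447%) lower and 12 (0.122%) higher of all genes tested. The list was chosen with earlier results of these data known, so these counts are a description and not a sign of enrichment. Lrp5, a Wnt co-receptor gene of the list, had 7.83, 7.84 and 7.78 after calcitriol, against 7.84, 8.05 and 7.94 after calcidiol. Its difference of -0.13 (95% interval -0.27 to 0.01) was small beside that of Casr or Igfbp5, and its interval narrow. Among 8 tested genes of vitamin D metabolism and transport 0 passed, with differences between -0.03 and 0.09.

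Of the genes with the smallest p, Agps came first. Agps encodes a peroxisomal enzyme of ether lipid synthesis, and its signals were 8.40, 8.30 and 8.34 after calcitriol, against 8.15, 8.13 and 8.19 after calcidiol and 8.24, 8.29 and 8.17 in control cells. The 3 calcitriol arrays were above the 3 calcidiol arrays, with a difference of 0.19 (SE 0.05, unadjusted p = 0.00282, adjusted p = 0.9997 by limma). Drg1, a GTP-binding protein gene, had 10.37, 10.18 and 10.23 after calcitriol, against 10.00, 9.98 and 10.13 after calcidiol, a difference of 0.23 (95% interval 0.06 to 0.39). Snx6, encoding a sorting nexin of endosomes, had 9.01, 9.06 and 9.03 after calcitriol, against 8.94, 8.70 and 8.88 after calcidiol, a difference of 0.19 (0.05 to 0.34). In these 3 genes and in Ubxn2b and Sccpdh the groups did not overlap. Cenpk, a kinetochore gene, Ndufaf4, an assembly factor gene of respiratory complex I, and Dact1, a Wnt pathway gene, differed by 0.31 (0.07 to 0.54), 0.22 (0.05 to 0.39) and 0.19 (0.04 to 0.34), and the 2 groups of arrays overlapped in each.

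In the other direction Ptprn2, which encodes a phosphatase-like protein of dense-core secretory granules, had 10.83, 10.80 and 10.74 after calcitriol, against 10.84, 11.08 and 11.20 after calcidiol and 10.81, 10.76 and 10.75 in control cells. The calcitriol arrays and calcidiol 1 stood near the controls, and the difference was -0.25 (SE 0.10, unadjusted p = 0.0205, adjusted p = 0.9997 by limma). Adamts17, a secreted metalloprotease gene, had 6.70, 6.74 and 6.63 after calcitriol, against 6.88, 7.22 and 6.90 after calcidiol, a difference of -0.31 (95% interval -0.56 to -0.05) with no overlap. Timp1, encoding an inhibitor of metalloproteases, had 7.31, 7.28 and 7.11 after calcitriol, against 7.48, 7.46 and 7.31 after calcidiol, a difference of -0.18 (-0.36 to -0.01). Unc5a, a netrin receptor gene, and Cwc22, a splicing factor gene, differed by -0.23 (-0.45 to -0.01) and -0.22 (-0.43 to -0.01).

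**Figure D3:**
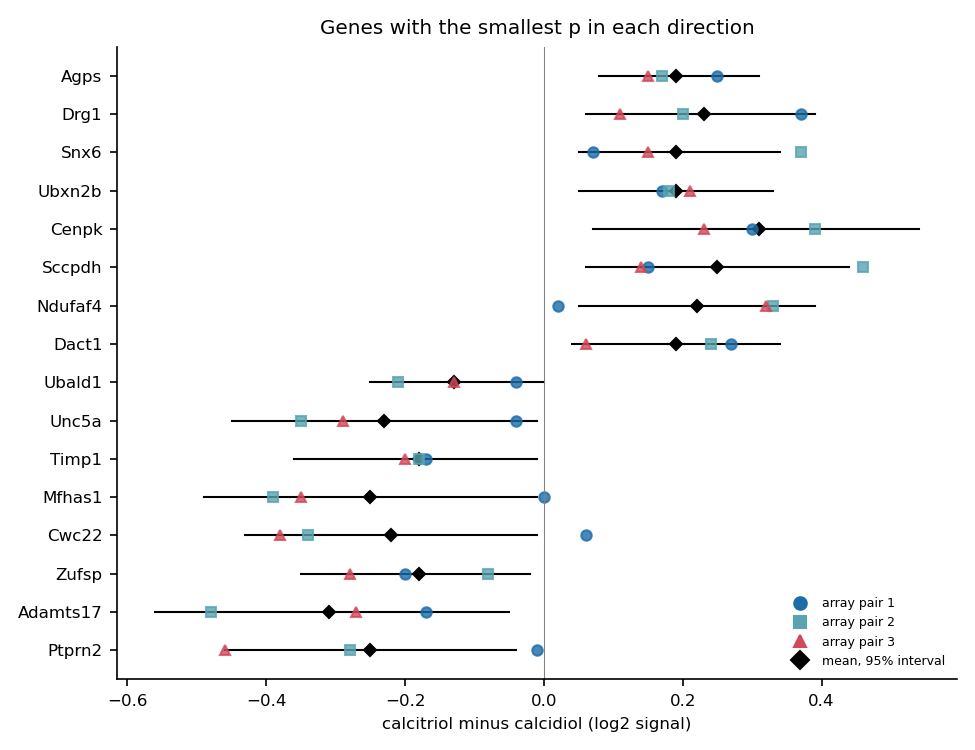
Calcitriol minus calcidiol (horizontal axis, log2 signal) for the 8 genes with the smallest p in each direction, higher after calcitriol above and lower below. Circles, squares and triangles are the differences of arrays numbered 1, 2 and 3, and diamonds with lines are the limma difference with its 95% interval over the 18 arrays. Agps, at the top, had 0.25, 0.17 and 0.15 in the 3 pairs, and Ptprn2, at the bottom, had -0.01, -0.28 and -0.46.

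The 2 groups of 3 arrays did not overlap for 316 genes higher (3.21% of those tested) and 101 genes lower (1.03%) after calcitriol, together 417 or 4.23%. For a gene without any difference, 3 arrays would separate from 3 others with a probability of 0.1. The share of 4.23% was below that, so the genes named next are a description. The widest gap upward was in Utp14b, a gene of ribosomal RNA processing, with 7.91, 8.02 and 7.95 after calcitriol, against 7.73, 7.65 and 7.74 after calcidiol. The control arrays, at 8.23, 8.10 and 8.01, were close to or above the calcitriol arrays. The widest gap downward was in Terc, the telomerase RNA gene, with 7.86, 7.70 and 7.88 after calcitriol, against 8.19, 8.51 and 8.15 after calcidiol and 8.70, 8.55 and 7.93 in control cells. Setd6, a lysine methyltransferase gene, Gbe1, encoding the glycogen branching enzyme, and Bex2 were higher by 0.20, 0.24 and 0.23 without overlap. Cln3, a lysosomal membrane protein gene, and Med20, a Mediator subunit gene, differed by -0.12 and -0.13 without overlap. Taken in pairs of like number, 1585 genes (16.1%) were higher after calcitriol in all 3 pairs and 814 (8.26%) were lower in all 3.

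The beta-cell genes lay close together in the 2 groups. Ins1 had 12.80, 12.83 and 12.82 after calcitriol, against 12.78, 12.98 and 12.90 after calcidiol, a difference of -0.07 (95% interval -0.18 to 0.04). Ins2 had 12.99, 13.01 and 13.01 after calcitriol, against 13.04, 13.05 and 13.04 after calcidiol, a difference of -0.04 (-0.14 to 0.06). Both are insulin genes, and their 95% intervals for the signal reached no lower than -0.18 and no higher than 0.06. With signals of 12.78 to 13.05, whether the array still separates transcript levels that high was not tested. Of 32 tested genes of beta-cell identity and hormone production 0 passed, with differences between -0.14 and 0.24, the highest in Pcsk1, a prohormone convertase gene (-0.08 to 0.56). Slc2a2, the glucose transporter gene, differed by 0.09 (-0.04 to 0.23). Of 56 secretion and ion channel genes 0 passed, and Rab27a and Cplx1, genes of granule docking and fusion, differed by 0.20 (-0.03 to 0.42) and 0.17 (-0.03 to 0.37).

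Of 37 tested genes of calcium and cation handling 0 passed over the 18 arrays and Casr alone over the 12, with a median of 0.02. Rcan1, encoding an inhibitor of calcineurin, and Ppp3cb, encoding a catalytic subunit of calcineurin, differed by 0.16 (95% interval -0.01 to 0.33) and 0.19 (-0.03 to 0.40). Among 54 cell cycle genes 0 passed, while their median was 0.11, against 0.02 over all genes. By pair, that median was -0.01, 0.19 and 0.1 for the arrays numbered 1, 2 and 3, so that the first pair did not share it. Cdkn3, a cell cycle phosphatase gene, had 9.09, 9.14 and 9.23 after calcitriol, against 8.96, 8.43 and 9.17 after calcidiol, a difference of 0.30 (-0.04 to 0.64) in which calcidiol 2 stood lowest. Mad2l1, a spindle checkpoint gene, differed by 0.22 (-0.02 to 0.45). Among 27 p53 and apoptosis genes 0 passed, and Bax, a gene of cell death, differed by 0.16 (0.00 to 0.33).

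Each of the other lists also had 0 members that passed over the 18 arrays. Their median differences lay between -0.02 and 0.12, with the carbohydrate response genes, 17 tested, at 0.12. That list had pair medians of -0.02, 0.05 and 0.19, and it holds Txnip. The immediate early genes, 31 tested, had a median of 0.02 and pair medians of -0.07, -0.02 and 0.19. The 62 genes of oxidative phosphorylation had a median of 0.04, and the 72 ribosomal protein genes one of 0.02. An unadjusted limma p under 0.05 was reached by 1 of the 26 vitamin D response genes, Vdr, which is also among the receptor partners, and by 2 of the 27 p53 and apoptosis genes, Bax among them, and by 0 members of the lists besides.

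**Figure D4:**
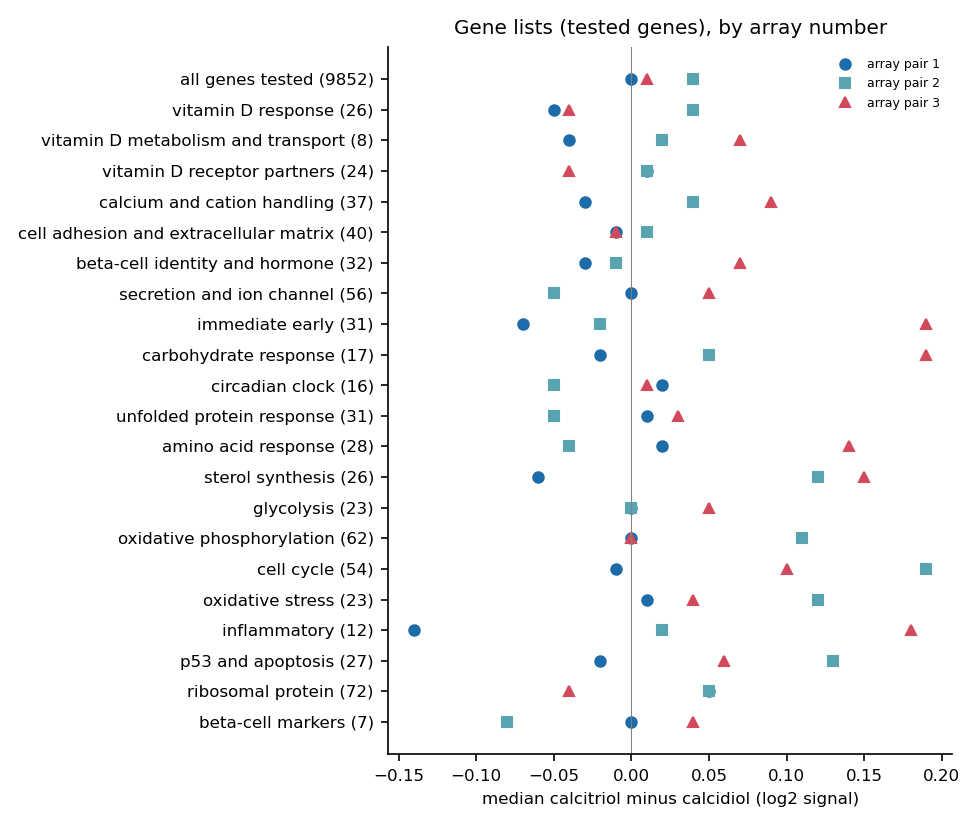
Median calcitriol minus calcidiol (horizontal axis, log2 signal) over the tested genes of each list except the markers of other cell types, with the number of genes in brackets. Circles, squares and triangles are arrays numbered 1, 2 and 3. The plotted medians lie between -0.14 and 0.19, and for the immediate early and carbohydrate response lists the pair numbered 3 lies apart at 0.19.

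The line was checked against its markers. Of 8 beta-cell markers, 7 were in the table, and their summed log2 signal was 81.2 to 81.4 on the calcitriol arrays, 81.0 to 81.6 on the calcidiol arrays and 81.3 to 81.7 on the control arrays. Of 28 markers of other islet, pancreatic, stromal, vascular, immune and glial cells, 13 were in the table, 9 of them below the filter, with sums of 85.4 to 86.3, 84.8 to 87.2 and 85.1 to 86.2 on the calcitriol, calcidiol and control arrays. Gcg, the glucagon gene, had 11.71, 11.38 and 11.32 after calcitriol, against 11.82, 12.04 and 10.27 after calcidiol, and Sox9, a duct-cell transcription factor gene, had 7.44, 8.05 and 8.04 after calcitriol, against 7.55, 8.86 and 8.70 after calcidiol. Krt7, a keratin gene of duct cells, had 10.44, 10.10 and 9.62 after calcitriol, against 9.72, 9.79 and 10.86 after calcidiol. Calcidiol 3 was lowest for Gcg and highest for Krt7, calcidiol 2 and 3 were highest for Sox9 as for Vdr, and the 2 duct-cell genes went opposite ways in the pairs numbered 1 and 2. The 4 tested markers of other cell types had pair medians of -0.06, -0.36 and -0.26 for the arrays numbered 1, 2 and 3. Their part in the differences above was not tested.

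With 22 mM glucose the same contrast between the forms was measured on other arrays, and the pattern of the arrays numbered 3 was there again. Casr had 7.18, 7.36 and 6.45 after calcitriol with glucose, against 6.32, 6.48 and 9.55 after calcidiol with glucose. Of the 44 genes lower on calcitriol 3 without glucose, all 44 were lower with glucose too, 43 of them by at least 1 unit, with a median of -1.45. Of the 12 that were higher, 12 were higher with glucose, with a median of 1.72. Txnip had 12.33, 12.22 and 12.28 after calcitriol with glucose, against 12.23, 12.18 and 10.23 after calcidiol with glucose, and 12.29, 12.22 and 10.33 on the arrays with glucose and no vitamin D. With glucose, the arrays numbered 3 of calcidiol and of cells without vitamin D were thus both low, and calcitriol 3 was not. The arrays numbered 3 of the 2 glucose states carry the same number, and whether they share a culture is not given in the labels.

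Whether the difference between the forms depended on glucose was tested as an interaction. Limma called 0 of 9852 genes (0.0%), and 97 genes (0.985%) had an unadjusted p under 0.05. For Casr the difference without glucose minus that with glucose was 0.15 (95% interval -2.23 to 2.53), and for Vdr the interval was -0.78 to 0.55. For Agps the interval was -0.01 to 0.31, and its difference between the forms with glucose was 0.04, against 0.19 without. These intervals include 0. For Casr, calcitriol minus calcidiol in the pairs numbered 1, 2 and 3 was 1.16, 0.97 and -3.03 without glucose. With glucose it was 0.86, 0.88 and -3.1. The test leaves the array number out, so the width of the Casr interval holds a spread among numbers that both glucose states share.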

How the data were processed

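Total RNA of 18 INS1E samples (150 ng each) was hybridised to Affymetrix Rat Gene 1.0 ST arrays, per the labels. The authors deposited normalised log2 signals. RMA and Partek are named in the submitters' processing notes, with settings not given in the sources used here. Of 17017 deposited probe sets, 14698 carried 1 gene symbol, giving 13136 symbols, of which 11287 were current and 1021 older in RefSeq GRCr8. The probe set with the highest mean stood for a gene. Genes in the lowest 25% of mean log2 signal were left out. One limma 3.58.1 model (R 4.3.3) of all 6 groups, with 12 residual degrees of freedom and Benjamini-Hochberg adjustment over 9852 genes, gave the main tests, and the fit of the 12 arrays numbered 1 and 2 had 6. Plots used Python 3.11.15 and matplotlib 3.10.9. Median log2 signal per array was 7.52 to 7.63, and precision is limited by how few arrays there are.

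Like-numbered arrays of the 2 forms deviated together from their group means (r = 0.567, 0.393 and 0.245). By these values, and not by the labels, the numbers may pair the samples, though unlike-numbered arrays were not compared in this way. The main tests and their intervals leave this pairing out, and the block was an alternative. Other alternatives changed the filter, the normalization, the probe sets of a gene, the variance model and the arrays in the fit. The simulated data had 9852 genes with 200 changed. Over 18 arrays, this comparison recovered 98.2% of changes of 1 unit and 80.2% of changes of 0.5. Over 12 arrays it recovered 99% and 73.2%. These rates hold for the simulated arrays and were not checked against the real ones, in which like-numbered arrays deviated together. For Casr the SE over the 18 arrays was 0.79, against a median of 0.089 over genes. The rates therefore do not carry over to such genes, and they do not show how many real differences were missed.

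The groups, the 22 gene lists and the rule for named genes were chosen with earlier results of these data known. Named were the 8 genes with the smallest p, the 8 widest gaps and the 8 most extreme differences of the arrays numbered 3, in each direction, any gene passing on the 12 arrays, 3 genes of smallest p per list, and fixed vitamin D, insulin, Txnip, Nr4a1 and Egr1 genes. Predicted genes were passed over, and some genes the rule picked are not reported here.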

Additional observations from a re-analysis of the deposited data

Results flagged for a closer look

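E2f3, a cell cycle transcription factor gene, was picked out because its calcitriol and calcidiol arrays did not overlap in either glucose state, in opposite directions. Only the named genes were searched in this way, and the share over all genes was not counted. Without glucose E2f3 had log2 signals of 7.54, 7.64 and 7.54 after calcitriol, against 7.51, 7.45 and 7.42 after calcidiol, a gap of only 0.03. With glucose it had 7.30, 7.31 and 7.31 after calcitriol, against 7.41, 7.35 and 7.32 after calcidiol. The difference of the 2 differences was not tested by this criterion itself, and in the limma interaction test it was 0.16 (SE 0.08, unadjusted p = 0.0583, adjusted p = 0.9998).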

How the results depend on the processing

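Of 23 alternatives for calcitriol against calcidiol, 21 gave 0 genes by limma. The count was 1 on the arrays numbered 1 and 2 and 2 on those arrays with the replicate number as a block. Casr was then 1.06 in both fits, against -0.30 over all arrays, and Adam23 was 1.06, against -0.04, both with the opposite sign; calcidiol 3, high for both genes, is among the arrays left out. Leaving out 1 array number at a time, Casr ranged between -1.03 and 1.06, and without calcidiol 3 alone it was 0.79 and was not called. A fit of the compared groups without the arrays numbered 3, chosen after seeing the data, gave 0 genes. With the replicate block over 18 arrays 0 genes passed and 352 had an unadjusted p under 0.05, against 96 without it. That unadjusted count was 235 with array weights, 169 with every probe set tested, and 295, 22 and 216 without the arrays numbered 1, 2 and 3. Leaving out single arrays gave 0 calls each time, and the unadjusted count ran between 21 without calcidiol 2 and 516 without calcidiol 1. The interaction with glucose gave 0 genes in all 27 alternatives by limma, the replicate block included, with 47 to 467 genes at an unadjusted p under 0.05. Of 66 named genes, 46 kept their sign in every alternative run. Some of them were named because their groups did not overlap, and leaving out arrays cannot turn the sign of such a gene. Several alternatives also leave the difference itself unchanged, so this count is no measure of robustness. Scaling moved the median of all genes by less than 0.1.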
